A study of Mus musculus with 12 samples.

Results

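The 33 genes described here mark macrophages and their states, monocytes and dendritic cells, and all 33 were found by symbol among the 35434 genes of the deposited count table. They were measured in bulk RNA of 12 subcutaneous tumours of 4T1, a mouse mammary carcinoma line that grows as an epithelial tumour in immunocompetent BALB/c mice. Every tumour came from a different female BALB/c mouse aged 6 to 8 weeks, injected with the cells under the skin of the back after 3 days of acclimatization, and was taken on study day 22. The groups, with 3 mice each, were MC (ambient altitude in Lanzhou, about 1500 m, with vehicle), MI (ambient altitude with IOX2), HC (a hypobaric chamber simulating 3500 m, with vehicle) and HI (the chamber with IOX2). IOX2, an inhibitor of the prolyl hydroxylases that mark hypoxia-inducible factors for destruction, was injected into the peritoneum at 10 mg/kg each day for 10 days from day 9 after inoculation, and vehicle on the same days. The chamber housed HC and HI alone, so altitude and chamber housing cannot be told apart, and "altitude" below stands for both.

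Macrophages in tumours come largely from blood monocytes, which depend on the receptor encoded by Csf1r, and they take up states that range from scavenging and tissue repair to the killing of microbes. Dendritic cells depend on the receptor encoded by Flt3 and carry antigen to lymph nodes. Conventional type 1 dendritic cells, marked by Xcr1 and Clec9a, present antigen of dead cells to CD8 T cells. Conventional type 2 cells serve CD4 T cells, and plasmacytoid cells, marked by Siglech in mice, make type I interferon. Several of the 33 genes are shared with other cells: Itgae with T cells of tissues, Irf4 and Irf8 with B cells, Lyve1 and Stab1 with lymphatic or other endothelium, Spp1 and Fscn1 with carcinoma cells, and Arg1 and Nos2 with neutrophils.

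Library totals ran from 31661685 to 40019343 counts, and all 33 genes were among the 15269 that passed the filter on low counts. The markers of the labelled tissue were present: Krt8, a keratin gene of simple epithelium, was at 888 to 1287 CPM (counts scaled to a common library size and composition) over the 12 tumours. The 5 macrophage markers Adgre1, Csf1r, Cd68, Mrc1 and C1qa summed to 738 to 1142 CPM. The 5 dendritic cell markers Flt3, Zbtb46, Xcr1, Clec9a and Itgax summed to 56.2 to 109 CPM, most of it from Itgax and Zbtb46.

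A pair of libraries stood apart from their groups in these genes. In MI1 the 5 B cell and plasma cell markers that passed the filter, of 7 listed, summed to 669.7 CPM, against 2.24 to 18.3 CPM in the other 11 tumours, and none of the 5 was at 0 in MI1. In HI3 the mean log2 deviation of the 5 type 1 dendritic cell genes was 0.48, against -0.95 in HI1 and -0.86 in HI2, and within the MI range of 0.38 to 0.69. (The deviation is each gene's log2 CPM minus its mean over the 12 tumours, averaged over the genes of a role.) Across the genes tested, HI3 correlated most with MI2 (r = 0.989) and less with HI2 (r = 0.984) and HI1 (r = 0.975). HI1 and HI2 also correlated most with a library of another group, but that library, HC2, was an altitude one (r = 0.985 and 0.984). HI3 correlated more with the ambient libraries MI2, MC2, MC3 and MC1 (r = 0.989, 0.988, 0.986 and 0.986) than with any altitude library. Its closest altitude library was HC3 (r = 0.985), and its correlation with MI3 and MI1 was lower (r = 0.979 and 0.968). The 5 red-cell markers, all of which passed as higher in the averaged altitude effect described below, summed to 166 CPM in HI3, above the MI range of 87.5 to 123 CPM, as in the other HI tumours. Several results below are given with and without MI1 or HI3.

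**Figure D1:**
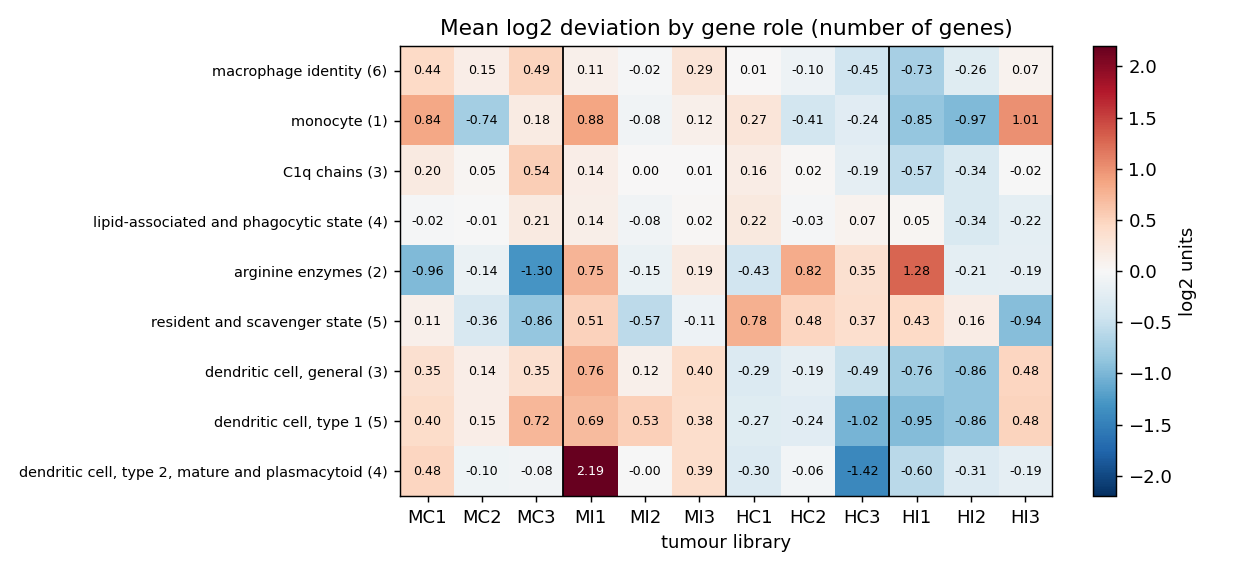
Mean log2 deviation of the genes of each role (rows, with the number of genes) in each tumour library (columns, grouped as MC, MI, HC and HI); red is above and blue below the mean of the 12 tumours. The general and type 1 dendritic cell rows are red in all MC and MI tumours and blue in all HC tumours, HI1 and HI2, while HI3 has 0.48 for the type 1 genes and MI1 has 2.19 for the type 2, mature and plasmacytoid genes.

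Levels of the 33 genes spanned a wide range when compared per gene length, in FPKM (fragments scaled for gene length and library size). Spp1, which encodes osteopontin, a secreted phosphoprotein of macrophages and carcinoma cells, had the highest mean over the 12 tumours at 2464 FPKM. Apoe, the lipid carrier apolipoprotein E, followed at 666 FPKM, and the complement genes C1qa, C1qc and C1qb were at 379, 258 and 243 FPKM. Among the conventional dendritic cell markers the levels were lower: 1.47 FPKM for Zbtb46, a transcription factor gene of conventional dendritic cells, 0.235 for Xcr1, 0.213 for Flt3 and 0.189 for Clec9a, the lowest of the 33. Clec9a rested on 3 to 61 counts per library, so its values carry a large counting error.

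The question the design puts to these genes is whether altitude, IOX2 or their combination goes with a shift in the myeloid makeup of the tumour. Of the 33 genes, 0 passed an adjusted p under 0.05 in any of the 7 comparisons by edgeR's quasi-likelihood test, fitted over all genes. The same fit called 0 of 15269 genes (0%) in HC against MC, HI against MI, HI against HC and the altitude by IOX2 interaction, 0.0262% in MI against MC, 0.498% in the altitude effect averaged over treatment and 0.0393% in the averaged IOX2 effect. By limma-voom 0 of the 33 passed in any comparison, and by DESeq2 0 passed in the 3 comparisons of IOX2 and the interaction. In the altitude comparisons DESeq2 called 4 in HC against MC (2.06% of all genes) and 2 in HI against MI (2.5%). It called 6 in the averaged altitude effect (5.67%). The counts that follow are from edgeR's test. At an unadjusted p under 0.05 the altitude comparisons held 12 of the 33 in HC against MC (12% of all genes) and 5 in HI against MI (15.2%). The averaged altitude effect held 17 of the 33, where 17.3% of all genes had such a p. Of these, 14 were lower (8.65% of all genes) and 3 higher (8.64%). The comparisons of IOX2 held 3 in MI against MC (9.39% of all genes), 2 in HI against HC (4.85%), 4 in the averaged IOX2 effect (5.12%) and 2 in the interaction (8.21%). Direction was uneven at altitude: 25 of 33 log2 changes were below 0 in HC against MC (52.2% of all genes, median -0.24), 29 of 33 in HI against MI (52.2%, median -0.30), and 27 of 33 in the average (53.8%, median -0.29). Over all genes tested the medians were -0.01, -0.01 and -0.02. Without MC3 the median in HC against MC was -0.14, and without MI1 that in HI against MI was -0.20. In bulk RNA, fewer cells of a type and less RNA per cell cannot be told apart, here and in every result that follows.

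**Figure D2:**
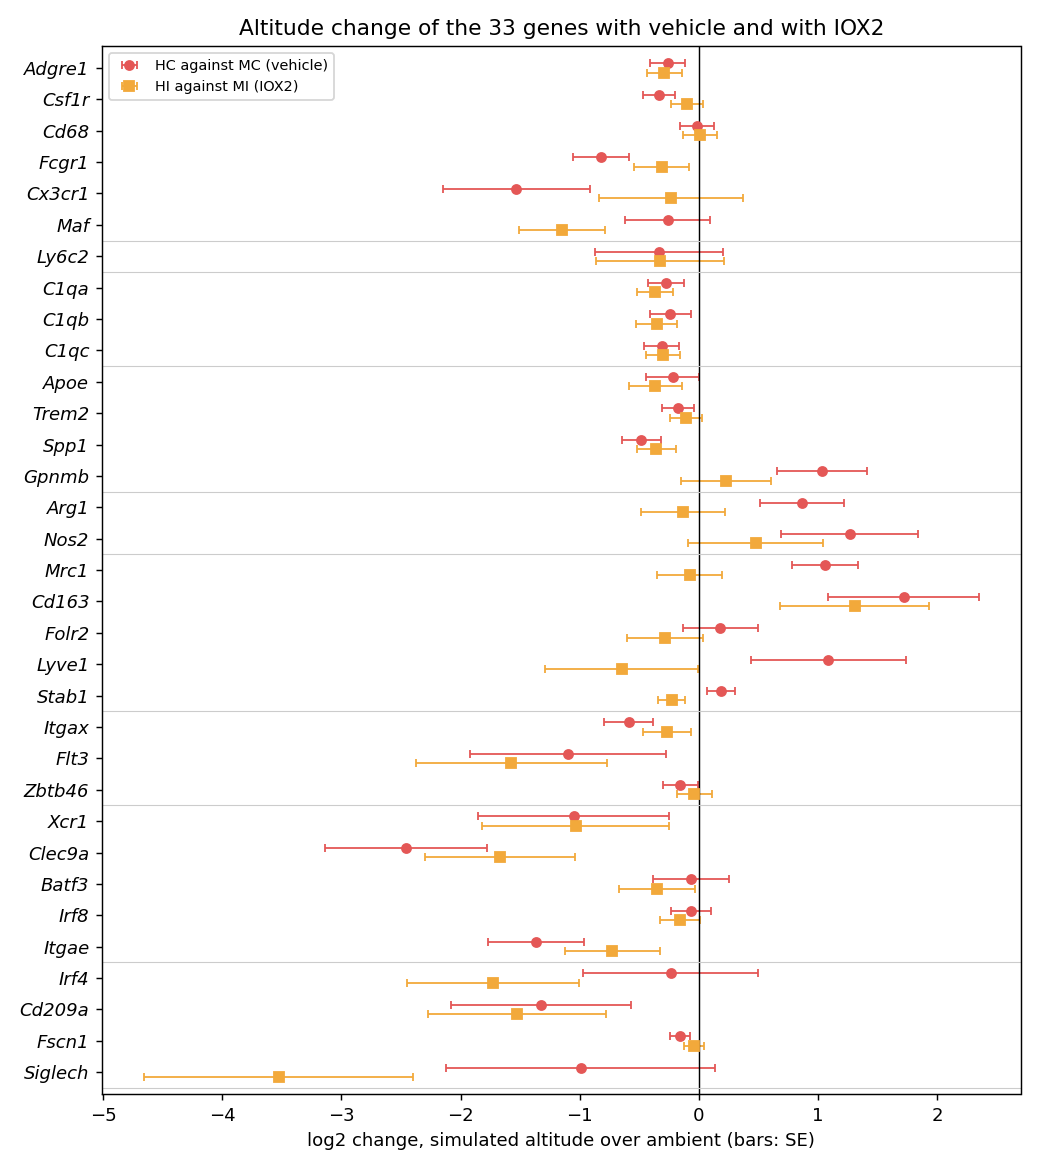
The log2 change at simulated altitude (horizontal axis, bars are SE) for each of the 33 genes, with vehicle (HC against MC, circles) and with IOX2 (HI against MI, squares), in blocks by role. Most points lie left of 0; among those to the right with vehicle are Cd163 (1.72), Nos2 (1.27), Lyve1 (1.09), Mrc1 (1.06), Gpnmb (1.03) and Arg1 (0.87), while with vehicle Clec9a (-2.46) lies farthest to the left.

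Of the 5 genes of conventional type 1 dendritic cells, 0 passed in HC against MC by edgeR's test and 5 had a log2 change below 0 (52.2% of all genes). In that comparison 2, Clec9a and Itgae, were free of overlap, both lower (11.4% of all genes). DESeq2 over all 12 libraries called both there (adjusted p = 0.0359 and 0.0444, with 2.06% of all genes). Without MI1 it called Clec9a (adjusted p = 0.0473, with 2.23% of all genes) and not Itgae. Clec9a, which encodes the receptor DNGR-1 that binds actin exposed on dead cells, was at 0.73, 0.479 and 1.55 CPM in MC1, MC2 and MC3, at 1.32, 1.14 and 0.741 in the 3 MI tumours, at 0.245, 0.177 and 0.0779 in HC and at 0.157, 0.173 and 0.672 in HI. All HC tumours were below all MC tumours, and all HI tumours below all MI tumours. The log2 change was -2.46 (SE 0.68, adjusted p = 0.249) in HC against MC and -1.67 (SE 0.63, adjusted p = 0.276) in HI against MI. Averaged over treatment the log2 change was -2.06 (SE 0.46, adjusted p = 0.0752), the smallest p of the 33 genes in that comparison.

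Itgae, which encodes the integrin chain CD103 of type 1 dendritic cells and of tissue T cells, followed the same order. It was at 6.52, 7.09 and 8.96 CPM in MC and 6.79, 7.72 and 5.36 in MI, against 2.84, 3.55 and 2.34 in HC and 2.19, 2.42 and 7.39 in HI. The HC tumours lay below all ambient tumours, as did HI1 and HI2, while HI3 lay within the ambient range. The log2 change was -1.37 (SE 0.40, adjusted p = 0.254) in HC against MC and -1.05 (SE 0.28, adjusted p = 0.11) averaged over treatment. The 8 T cell and natural killer cell markers summed to 44.02 to 57.6 CPM in MC, 45.7 to 120.3 in MI, 48.04 to 54.9 in HC and 50.4 to 87.7 in HI, with 5 of 8 log2 changes below 0 in HC against MC. Their part in the Itgae values was not tested. The 5 mast cell markers summed to 31.5 to 46.6 CPM in MC, 26.1 to 33.4 in MI and 17.5 to 24.6 in HC, and to 19.3, 17.7 and 32.1 CPM in HI1, HI2 and HI3. All 5 were lower in every HC than in every MC tumour (11.4% of all genes), and 1 of 5 passed as lower in the averaged altitude effect (0.498% of all genes passed in either direction). Mast cell markers thus stood low in the HC tumours, HI1 and HI2 and higher in HI3, as the dendritic cell genes above did, and their part in those values was not tested.

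Xcr1, the receptor gene for a chemokine made by CD8 T cells and natural killer cells, was at 1.33, 0.631 and 1.73 CPM in MC and 1.35, 1.26 and 2.17 in MI. It was at 0.948, 0.507 and 0.338 CPM in HC and 0.157, 0.222 and 1.94 in HI. The MC and HC ranges overlapped through MC2 and HC1, and HI3 stood far above HI1 and HI2. Flt3 was at 1.36, 1.19 and 1.17 CPM in MC, 4.81, 1.29 and 1.74 in MI, 0.764, 0.507 and 0.468 in HC and 0.235, 0.173 and 2.22 in HI. Its MC and HC tumours did not overlap, and MI1 and HI3 were the highest of all. The log2 change in HC against MC was -1.05 (SE 0.80, adjusted p = 0.662) for Xcr1 and -1.10 (SE 0.82, adjusted p = 0.651) for Flt3.

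**Figure D3:**
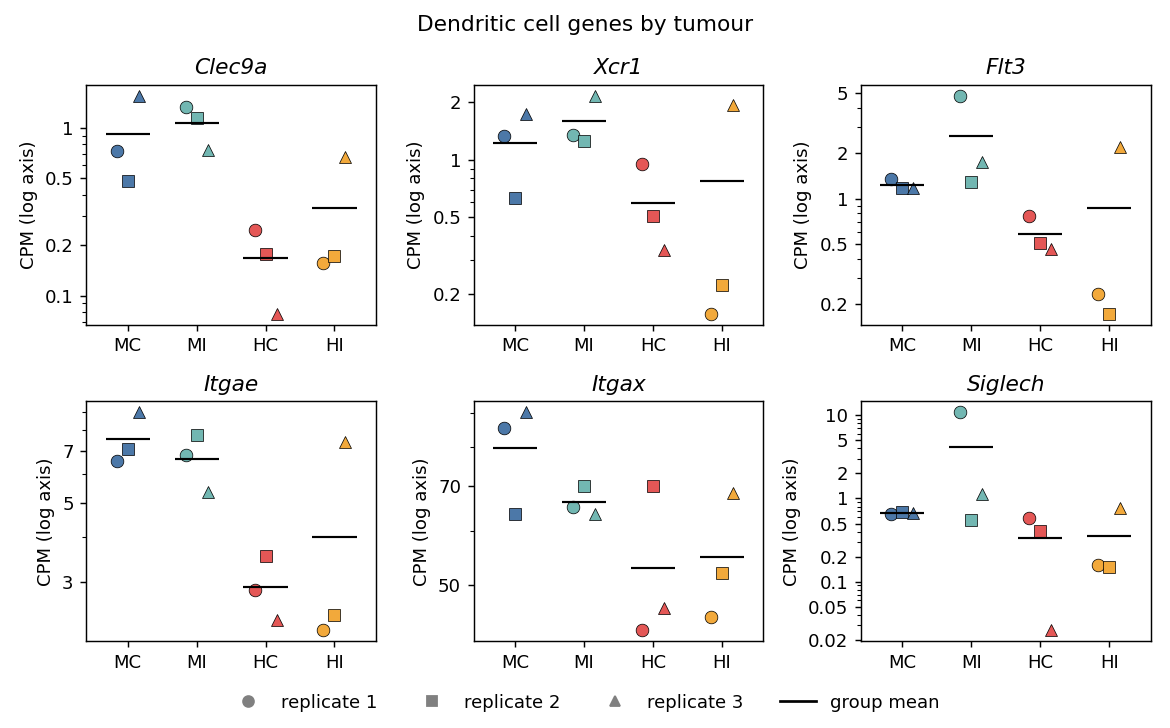
CPM on a log axis for 6 dendritic cell genes in each tumour; symbols give the replicate and horizontal lines the group means of 3 mice. For Clec9a, Xcr1, Flt3 and Itgae, HI1 and HI2 lie below every MC and MI tumour while HI3 (triangle) lies among them, and for Flt3 and Siglech MI1 (circle) lies above all others.

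Without HI3, 5 of the 33 genes passed in the averaged altitude effect, against 2.17% of all genes. Itgae fell by 1.45 (log2; SE 0.17, adjusted p = 0.0112), Clec9a fell by 2.57 (SE 0.43, adjusted p = 0.025), Flt3 fell by 2.38 (SE 0.39, adjusted p = 0.0236) and Xcr1 fell by 2.05 (SE 0.39, adjusted p = 0.034). Cd163, described below, rose by 1.74 (SE 0.36, adjusted p = 0.0406). In HI against MI without HI3, 0 of the 33 passed, and the log2 changes were -1.52 (adjusted p = 0.0679) for Itgae, -3.66 (adjusted p = 0.0679) for Flt3, which was -2.89 (adjusted p = 0.196) with MI1 left out as well, -3.04 (adjusted p = 0.111) for Xcr1 and -2.67 (adjusted p = 0.138) for Clec9a. Of the libraries left out 1 at a time, HI3 gave 5 such genes and MI2 gave 1 (Maf), where 1.3% of all genes passed. Each of the other 10 left-out libraries gave 0. HI3 is the tumour with the values farthest from this pattern, so the count without it is a description of the remaining 11 and no separate evidence. The DESeq2 Wald test on all 12 libraries called Clec9a, Itgae, Fcgr1, Spp1, Siglech and Cd163 in the averaged effect, where it called 5.67% of all genes. With MI1 left out, a setting added after the values were seen, DESeq2 called 4 of these (Clec9a, Itgae, Spp1 and Cd163, with 4.65% of all genes), and Siglech was at -1.12 (SE 0.65, adjusted p = 0.334). The 5 genes that passed without HI3 also passed with both MI1 and HI3 left out, an alternative chosen after the values were seen, with 1.34% of all genes.

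The transcription factor genes of type 1 dendritic cells differed less between groups. Irf8, a transcription factor gene that type 1 and plasmacytoid dendritic cells need, was at 129, 130.4 and 120.0 CPM in MC, 168, 130.1 and 115 in MI, 107, 154 and 101 in HC and 129.7, 109 and 132 in HI, with overlapping groups. Batf3, its partner in type 1 cells, had group means from 1.78 ± 0.253 CPM (HI) to 2.44 ± 0.301 CPM (MC; SD, n = 3). Zbtb46 had group means from 11.7 ± 1.14 CPM (HI) to 13.1 ± 0.767 CPM (MC). The averaged altitude change was -0.11 for Irf8 (adjusted p = 0.655), -0.21 for Batf3 (adjusted p = 0.66) and -0.10 for Zbtb46 (adjusted p = 0.65).

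Itgax, which encodes the integrin CD11c of dendritic cells and many macrophages, was at 85.5, 63.6 and 90.1 CPM in MC, 65.3, 70.1 and 63.6 in MI, 42.8, 70.1 and 46.1 in HC and 44.8, 51.98 and 68.4 in HI. HC2 and HI3 lay among the ambient tumours and the other 4 altitude tumours below them. Its averaged altitude change was -0.43 (SE 0.14, adjusted p = 0.171). Fscn1, the actin-bundling gene of mature dendritic cells and of invasive carcinoma cells, was at 360.0, 379.8 and 407 CPM in MC, 369, 357 and 339 in MI, 309, 359 and 359 in HC and 350.2, 362 and 324 in HI. All HC tumours were below all MC tumours by a small margin (log2 -0.16, SE 0.09, adjusted p = 0.499).

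Cd209a, a lectin gene of type 2 and monocyte-derived dendritic cells, was low throughout, at 1.21, 0.278 and 0.204 CPM in MC, 1.04, 0.413 and 0.513 in MI, 0.183, 0.406 and 0.0779 in HC and 0.183, 0.321 and 0.174 in HI. All HI tumours were below all MI tumours (log2 -1.52, SE 0.75, adjusted p = 0.351). Siglech, the plasmacytoid marker, was at 0.655, 0.681 and 0.662 CPM in MC, 10.8, 0.558 and 1.14 in MI, 0.581, 0.406 and 0.026 in HC and 0.157, 0.148 and 0.772 in HI. MI1 was the highest tumour, HI1 and HI2 were low, and the value of HC3 rests on 1 count, under the 3 counts that a count of 0 allows. The log2 change in HI against MI was -3.53 (SE 1.13, adjusted p = 0.238), and without MI1 it was -1.24 (SE 0.88, adjusted p = 0.563). DESeq2 called Siglech in HI against MI over all 12 libraries (adjusted p = 0.0345, with 2.5% of all genes) and not without MI1 (log2 -1.26, SE 0.96, adjusted p = 0.576).

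Irf4, a factor gene of type 2 dendritic cells and of plasma cells, was at 1.76, 1.21 and 1.60 CPM in MC, 14.9, 1.46 and 1.91 in MI, 1.41, 1.70 and 0.779 in HC and 1.67, 2.39 and 1.44 in HI. MI1 alone stood out, and the other 11 tumours were between 0.779 and 2.39 CPM. With IOX2 at ambient altitude the log2 change of Irf4 was 1.99 (SE 0.73, adjusted p = 0.492) and that of Siglech 2.64 (SE 1.07, adjusted p = 0.492), the smallest p-values among the 33 there. Without MI1 the changes were 0.16 (SE 0.37, adjusted p = 0.933) for Irf4 and 0.36 (SE 0.87, adjusted p = 0.933) for Siglech. B cell and plasma cell markers stood high in the same tumour, as given above. Their part in these values was not tested.

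Upstream sequence is shown for 4 members whose log2 changes were below 0 in HC against MC and in HI against MI, of which 0 passed by edgeR's test over all 12 libraries. The groups overlapped for C1qb and Xcr1 in HC against MC and for all 4 in HI against MI. RefSeq promoter windows on build GRCm38.p6 matched 25 of the 33 genes by symbol, with 31 start sites, while the counts were made on GRCm39. The 250 bases before the start are printed for Flt3 and Xcr1 as dendritic cell genes and for C1qb and Fcgr1 as macrophage genes, 5′ to 3′ on the gene's strand. Capitals mark a match on either strand to GAGGAA, the core bound by the myeloid factor PU.1, or to TGANTCA, an AP-1 site. They also mark a match to ACGTG, a form of the core of hypoxia response elements, of which no other form was searched. A match to the composite element of ETS and IRF factors, such as PU.1 with IRF4 or IRF8, is marked too.
Xcr1 (chr9:123862030-123862279, minus strand): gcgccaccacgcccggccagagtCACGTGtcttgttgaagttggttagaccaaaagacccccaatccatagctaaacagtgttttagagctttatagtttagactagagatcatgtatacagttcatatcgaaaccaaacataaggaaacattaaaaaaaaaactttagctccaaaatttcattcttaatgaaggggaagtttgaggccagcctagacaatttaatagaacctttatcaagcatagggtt
Flt3 (chr5:147400490-147400739, minus strand): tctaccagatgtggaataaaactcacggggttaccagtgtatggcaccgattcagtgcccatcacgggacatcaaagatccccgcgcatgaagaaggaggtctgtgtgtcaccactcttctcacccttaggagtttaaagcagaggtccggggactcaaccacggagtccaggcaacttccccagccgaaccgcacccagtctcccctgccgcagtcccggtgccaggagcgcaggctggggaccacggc
C1qb (chr4:136886201-136886450, minus strand): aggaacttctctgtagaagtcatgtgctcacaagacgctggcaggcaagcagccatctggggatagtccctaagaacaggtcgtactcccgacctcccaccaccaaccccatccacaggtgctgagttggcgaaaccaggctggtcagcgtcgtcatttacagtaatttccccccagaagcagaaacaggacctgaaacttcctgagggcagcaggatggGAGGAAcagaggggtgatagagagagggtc
Fcgr1 (chr3:96293970-96294219, minus strand): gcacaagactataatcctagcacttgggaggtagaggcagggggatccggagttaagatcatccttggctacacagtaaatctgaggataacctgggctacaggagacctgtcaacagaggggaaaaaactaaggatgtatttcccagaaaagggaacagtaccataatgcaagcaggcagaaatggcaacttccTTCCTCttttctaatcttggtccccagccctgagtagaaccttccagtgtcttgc
GAGGAA stood at 30 to 25 bases before the start of C1qb, and on the opposite strand at 55 to 50 bases before that of Fcgr1. The capitals of Xcr1 are ACGTG on both strands, overlapping by all but 1 base. Flt3 held none of the 4. Over the 31 windows of the 25 genes, 45.2% held GAGGAA, against 23.3% of 32851 windows of the same length over all genes. The shares were 12.9% against 16.6% for ACGTG, 16.1% against 6.75% for TGANTCA and 3.23% against 2.3% for the composite element. A match is a run of letters and not a measured binding site.

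Among the genes of macrophage identity, Fcgr1 and Cx3cr1 stood lower at altitude with vehicle, while Cd68 had equal means in MC and HC within their spread. Fcgr1, which encodes the high-affinity IgG receptor CD64 that sets macrophages apart from dendritic cells, was at 79.3, 61.4 and 81.4 CPM in MC, 53.6, 56.4 and 51.9 in MI, 51.2, 44.6 and 29.8 in HC and 29.03, 44.6 and 56.8 in HI. All MC tumours were above all tumours of the other 3 groups. Its log2 change was -0.82 (SE 0.23, adjusted p = 0.249) in HC against MC, -0.46 (SE 0.23, adjusted p = 0.492) in MI against MC, which shares the MC tumours, and -0.31 (SE 0.23, adjusted p = 0.512) in HI against MI. DESeq2 called Fcgr1 in HC against MC over all 12 libraries (adjusted p = 0.047, with 2.06% of all genes) and not without MI1 (adjusted p = 0.0563, with 2.23% of all genes).

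Cx3cr1, the fractalkine receptor gene of patrolling monocytes and many tissue macrophages, was at 94.9, 80.1 and 127 CPM in MC, 38.2, 67.8 and 68.2 in MI, 43.5, 33.7 and 27.4 in HC and 6.34, 62.02 and 79.7 in HI. All MC tumours were again above all MI and all HC tumours, and HI1 was the lowest of the 12, far below HI2 and HI3. The log2 change in HC against MC was -1.53 (SE 0.62, adjusted p = 0.362). Without HI1, whose spread enters the fit, it passed (log2 -1.53, adjusted p = 0.047, where 0.257% of all genes passed), and it was 1 of 2 members, with Mrc1, that passed in a fit of HC and MC alone (0.428% of all genes). In HI against MI the log2 change was -0.23 (SE 0.61, adjusted p = 0.869).

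Csf1r was at 272, 252 and 312 CPM in MC, 244, 235 and 229.8 in MI, 252, 234 and 178 in HC and 202, 211 and 249.9 in HI, so that MC had the highest mean and MC2, HC1 and HI3 were level. Its log2 change was -0.33 (SE 0.13, adjusted p = 0.36) in HC against MC and -0.10 (SE 0.13, adjusted p = 0.733) in HI against MI. Adgre1, which encodes the macrophage surface protein F4/80, had means of 53.5 ± 8.50, 45.9 ± 4.12, 44.7 ± 5.77 and 37.6 ± 5.83 CPM in MC, MI, HC and HI. Cd68, which encodes a lysosomal protein of phagocytes, had 72.5 ± 8.01, 64.7 ± 6.30, 71.8 ± 2.16 and 65.2 ± 14.9 CPM (averaged altitude change 0.00, SE 0.10, adjusted p = 0.997).

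Maf, a transcription factor gene of resident macrophages and of some T cells, was at 51.3, 39.2 and 39.4 CPM in MC, 71.5, 27.99 and 103 in MI, 38.3, 41.7 and 28.5 in HC and 35.1, 23.2 and 32.9 in HI. MI1 and MI3 were the highest tumours and MI2 was among the lowest. The log2 change in HI against MI was -1.15 (SE 0.36, adjusted p = 0.232), the smallest p of the 33 in that comparison. It passed when MI2 was left out (log2 -1.52, adjusted p = 0.0154, where 3.34% of all genes passed), and in DESeq2 (adjusted p = 0.0483, with 2.5% of all genes) but not in DESeq2 without MI1 (adjusted p = 0.214).

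Ly6c2, a surface gene of inflammatory monocytes, was at 9.42, 3.10 and 5.93 CPM in MC, 9.64, 4.93 and 5.67 in MI, 6.33, 3.93 and 4.42 in HC and 2.87, 2.64 and 10.6 in HI. The groups overlapped, and the averaged altitude change was -0.33 (SE 0.38, adjusted p = 0.681). Ly6c2 has a near-identical neighbour, Ly6c1, so the counts of either are uncertain.

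The 3 chains of C1q, the recognition unit of the classical complement pathway and a product of tissue macrophages, followed 1 order over the groups, with the highest mean in MC and the lowest in HI. C1qa was at 445, 417 and 590.3 CPM in MC, 465, 404 and 410.1 in MI, 443, 409 and 347 in HC and 282, 321 and 388 in HI. C1qc was at 336, 306 and 416 CPM in MC, 297, 285 and 278 in MI, 317, 290.3 and 246 in HC and 196, 224 and 278 in HI, and C1qb had means of 314 ± 58.8, 275 ± 14.6, 266 ± 30.5 and 215 ± 51.8 CPM. MC3 was the highest and HI1 the lowest tumour for all 3 chains. The averaged altitude change was -0.32 (SE 0.11, adjusted p = 0.171) for C1qa, with C1qb at -0.30 and C1qc at -0.31. For the averaged IOX2 effect C1qc had the smallest p of the 33 genes, with a log2 change of -0.30 (SE 0.10, adjusted p = 0.759), C1qa had -0.23 and C1qb -0.25. The lower means of all 3 chains in MI than in MC and in HI than in HC were within the overlap of single tumours, except that all MI tumours were below all MC tumours for C1qc.

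Of the 5 resident and scavenger genes, 0 passed in HC against MC and 5 had a log2 change above 0, while 52.2% of all genes were below 0. In that comparison 3, Mrc1, Cd163 and Lyve1, were free of overlap, all higher (10.3% of all genes). The direction was not shared with IOX2: in HI against MI Cd163 alone was above 0 and 4 were below (median -0.23). In the averaged altitude effect 3 were above 0 and 2 below. Mrc1, which encodes the mannose receptor CD206 of repair-type macrophages, was at 126, 116 and 103 CPM in MC, 185, 99.7 and 179.9 in MI, 268, 217 and 236 in HC and 217, 118 and 106 in HI. All HC tumours were above all MC and all MI tumours, while of the HI tumours HI1 was high and HI2 and HI3 were at the MC level. The log2 change was 1.06 (SE 0.27, adjusted p = 0.231) in HC against MC, the smallest p of the 33 in that comparison, and -0.07 (SE 0.27, adjusted p = 0.913) in HI against MI. Mrc1 was also first in the interaction (log2 -1.14, SE 0.39, adjusted p = 0.596) and in HI against HC (log2 -0.71, SE 0.27, adjusted p = 0.964), so a difference of the altitude effect between treatments was not shown. DESeq2 called Mrc1 in HC against MC (adjusted p = 0.0157).

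Cd163, the receptor gene for haptoglobin-bound hemoglobin on scavenging macrophages, was at 23.5, 11.9 and 5.14 CPM in MC, 22.9, 9.22 and 15.4 in MI, 57.3, 35.98 and 40.3 in HC and 69.4, 37.7 and 10.7 in HI. Every altitude tumour but HI3 was above every ambient tumour. For Cd163 the log2 change was 1.72 (SE 0.63, adjusted p = 0.327) in HC against MC, 1.31 (SE 0.62, adjusted p = 0.343) in HI against MI and 1.51 (SE 0.44, adjusted p = 0.133) averaged over treatment. The summed red-cell markers were 19.7 to 21.0 CPM in MC, 87.5 to 123 in MI, 56.3 to 105 in HC and 166 to 315 in HI, with 5 of 5 markers called in the altitude average. Fat cell markers also stood with these genes in some tumours. The 5 fat cell markers summed to 394, 233 and 51.7 CPM in HC and 142, 194 and 27.6 in HI, against 25.1 to 39.4 in MC and 48.1 to 98.2 in MI. The part of either marker list in the scavenger genes was not tested.

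Lyve1, the hyaluronan receptor gene of vessel-associated macrophages and lymphatic endothelium, was at 8.59, 4.69 and 2.85 CPM in MC, 20.98, 5.75 and 5.73 in MI, 14.5, 9.68 and 10.2 in HC and 8.09, 10.8 and 1.82 in HI. Lyve1 was higher in all HC than in all MC tumours, and MI1 was the highest and HI3 the lowest of the 12. The log2 change in HC against MC was 1.09 (SE 0.65, adjusted p = 0.543). The 4 lymphatic endothelial markers summed to 105 CPM in MI1 and 24.5 to 39.2 in the other tumours, and their part in the MI1 value was not tested. Stab1, a scavenger receptor gene of macrophages and sinusoidal endothelium, was at 115, 115 and 109 CPM in MC, 135, 111 and 122 in MI, 151, 123 and 112 in HC and 96.9, 114 and 103 in HI. It had the next smallest p after Mrc1 in HI against HC (log2 -0.30, SE 0.12, adjusted p = 0.964) and in the interaction (log2 -0.42, SE 0.16, adjusted p = 0.596), with overlapping groups. The 6 endothelial markers summed to 213 to 234 CPM in HI and 265 to 322 in HC, against 294 to 309.6 in MC and 289 to 399.9 in MI, and their part in the Stab1 values was not tested. Folr2, a folate receptor gene of resident macrophages, had means of 12.6 ± 2.90, 11.4 ± 3.94, 14.3 ± 3.60 and 9.32 ± 3.32 CPM in MC, MI, HC and HI.

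**Figure D4:**
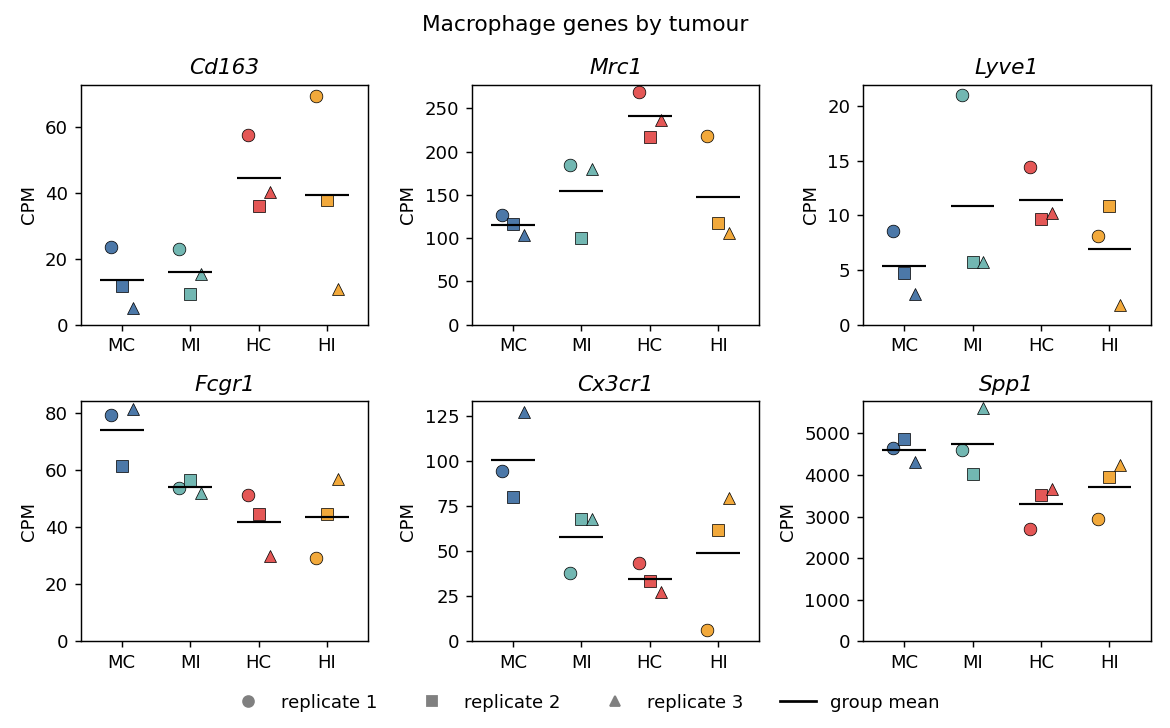
CPM (linear axis from 0) for 6 macrophage genes in each tumour; symbols give the replicate and horizontal lines the group means of 3 mice. Cd163 and Mrc1 are higher in all HC than in all MC tumours, Fcgr1, Cx3cr1 and Spp1 lower, and HI3 (triangle) is the lowest HI tumour for Cd163, Mrc1 and Lyve1.

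The genes of lipid-laden, phagocytic macrophages did not share a direction at altitude. Spp1 was at 4640.1, 4876 and 4325 CPM in MC, 4603, 4026 and 5623 in MI, 2705, 3513 and 3674 in HC and 2949.9, 3949 and 4229 in HI. All HC tumours were below all MC and all MI tumours, and HI3 reached the MI range. The log2 change was -0.48 (SE 0.16, adjusted p = 0.296) in HC against MC and -0.42 (SE 0.12, adjusted p = 0.116) averaged over treatment. The 6 epithelial tumour markers summed to 3469 to 3624 CPM in MC, 2924 to 3392 in MI, 3712 to 4052 in HC and 3306 to 3781 in HI, and their part in the Spp1 values was not tested.

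Gpnmb, which encodes a membrane glycoprotein of lysosome-rich macrophages, went the other way with vehicle. It was at 5.92, 7.24 and 6.23 CPM in MC, 8.29, 7.72 and 6.04 in MI, 15.3, 9.15 and 15.2 in HC and 15.2, 4.54 and 6.10 in HI. All HC tumours were above all ambient tumours, as was HI1, while HI2 and HI3 were at or below the ambient range (log2 1.03, SE 0.38, adjusted p = 0.325 in HC against MC). Apoe had means of 1866 ± 541, 1707 ± 259, 1603 ± 499 and 1325 ± 55.1 CPM in MC, MI, HC and HI, and all HI tumours were below all MI tumours. Trem2, the lipid-sensing receptor gene of phagocytes, was at 28.3, 24.5 and 34.9 CPM in MC, 26.1, 23.7 and 23.5 in MI, 26.8, 28.5 and 22.3 in HC and 24.4, 22.4 and 21.3 in HI. Its averaged IOX2 change was -0.22 (SE 0.09, adjusted p = 0.759), and the groups overlapped.

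Arg1 and Nos2, whose enzymes compete for arginine, had their lowest group means in MC. Arg1, which makes ornithine and urea, was at 199, 325 and 182 CPM in MC, 567, 297 and 423 in MI, 335, 529 and 424 in HC and 622, 302 and 252 in HI. Arg1 was higher in all HC than in all MC tumours, while MC2 was above MI2. For Arg1 the log2 change was 0.87 (SE 0.35, adjusted p = 0.366) in HC against MC and 0.87 (SE 0.35, adjusted p = 0.492) in MI against MC, comparisons that share the MC tumours. The interaction was -0.999 (SE 0.50, adjusted p = 0.602) for Arg1.

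Nos2, which makes nitric oxide, was at 60.7, 116 and 41.5 CPM in MC, 228, 126 and 142 in MI, 76.04, 272 and 177 in HC and 437, 114 and 139.8 in HI. All MI tumours were above all MC tumours, and HI1 was the highest of the 12 for both Nos2 and Arg1. For Nos2 the log2 change was 1.18 (SE 0.58, adjusted p = 0.492) in MI against MC and 1.27 (SE 0.58, adjusted p = 0.415) in HC against MC. The 10 neutrophil markers summed to 745 to 1312 CPM in MC, 1039 to 1456 in MI, 989.7 to 1614 in HC and 876 to 1522 in HI, and 9 of 10 had a log2 change above 0 in HC against MC. Their highest tumours were HC2, HI1 and MI1, and their part in the Arg1 and Nos2 values was not tested.

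IOX2 gave no member whose HI and HC tumours did not overlap, where 11.4% of all genes had such groups. In MI against MC 5 of the 33 did not overlap (11.1% of all genes): Nos2 higher (4.75% of all genes), and C1qc, Fcgr1, Csf1r and Cx3cr1 lower (6.32%). In HC against MC 13 of the 33 did not overlap, against 21.7% of all genes: 5 were higher (Mrc1, Gpnmb, Cd163, Arg1 and Lyve1, against 10.3%) and 8 lower (Clec9a, Fcgr1, Itgae, Spp1, Cx3cr1, Fscn1, Flt3 and Siglech, against 11.4%). In HI against MI 5 did not overlap, against 14.6%: Clec9a, C1qa, C1qc, Cd209a and Apoe, all lower (6.61%). Over all 6 altitude against all 6 ambient tumours 0 of the 33 were free of overlap, against 1.95% of all genes.

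Other genes of these cells, from lists of general knowledge chosen with earlier results of these data known, were read in the averaged altitude effect alone. In that comparison 0.498% of all genes passed, the largest share of the 7 comparisons. Of 19 further dendritic cell genes, 16 had a log2 change below 0 (median -0.34) and 1 passed. Cd86, which encodes a costimulatory ligand for T cells, fell by 0.66 (log2; SE 0.12, adjusted p = 0.0436), and its values were 15.8, 14.3 and 17.4 CPM in MC, 19.4, 17.4 and 17.2 in MI, 8.26, 12.1 and 10.1 in HC and 9.08, 10.8 and 13.6 in HI. All altitude tumours were below all ambient tumours for Cd86. The call ended in limma-voom (adjusted p = 0.0526) and when any 1 library other than MI2, HC2 or HI3 was left out (adjusted p = 0.0808 to 0.132). Next was Ccl22, a chemokine gene of mature dendritic cells, at 4.89, 4.52 and 5.45 CPM in MC, 9.06, 4.64 and 3.42 in MI, 1.10, 2.56 and 1.17 in HC and 3.60, 2.91 and 3.76 in HI (log2 -1.17, SE 0.27, adjusted p = 0.0774).

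Of 24 broad macrophage genes tested, 14 were below and 10 above 0 (median -0.06) and 0 passed, while 2 higher (8.64% of all genes) and 9 lower (8.65%) had an unadjusted p under 0.05. Chil3, which encodes the chitinase-like protein Ym1 of alternatively activated macrophages and neutrophils, was at 0.504, 1.09 and 0.407 CPM in MC, 40.9, 2.04 and 4.25 in MI, 85.6, 36.9 and 73.4 in HC and 155, 35.3 and 3.88 in HI. Its averaged log2 change was 4.32 (SE 0.95, adjusted p = 0.0702), and it passed without HI3 (adjusted p = 0.0269) and with the replicate number as a block (adjusted p = 0.0321). Timd4, a receptor gene of resident macrophages for dying cells, was at 1.49, 0.883 and 1.30 CPM in MC, 6.10, 1.63 and 1.05 in MI, 0.245, 0.38 and 0.312 in HC and 0.6, 0.247 and 1.12 in HI (log2 -2.05, SE 0.48, adjusted p = 0.0786). For Chil3 all MI, HC and HI tumours were above all MC tumours, and MI1 was above HC2 and HI2. For Timd4 all HC tumours, HI1 and HI2 were below all ambient tumours, while HI3 lay among them. Without MI1, the highest tumour for Timd4, its log2 change was -1.49 (adjusted p = 0.12). Timd4 passed without HI3 (adjusted p = 0.0421), without both MI1 and HI3 (adjusted p = 0.0425) and with no filter on low counts (adjusted p = 0.045).

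Of 10 monocyte genes, 7 were below and 3 above 0 (median -0.13), led by Hp, the haptoglobin gene (log2 1.87, SE 0.58, adjusted p = 0.144), and F13a1, a coagulation factor gene of monocytes and macrophages (log2 0.59, SE 0.19, adjusted p = 0.15). Of 9 growth factor and receptor genes, 6 were below 0 (median -0.11), led by Csf2ra, a GM-CSF receptor chain (log2 -0.23, SE 0.09, adjusted p = 0.242), and Kitl, the ligand gene of the receptor Kit (log2 -0.88, SE 0.36, adjusted p = 0.244). Of 13 transcription factor genes, 7 were below 0 (median -0.0047). Spib, a factor gene of B cells and plasmacytoid cells, had a log2 change of -2.75 (SE 0.91, adjusted p = 0.167), with 19.5 CPM in MI1 and at most 0.607 elsewhere, and without MI1 the change was -0.89 (adjusted p = 0.317). Klf4, a monocyte factor gene, had 0.45 (SE 0.16, adjusted p = 0.196). In these 3 lists 0 genes passed by edgeR's test over all 12 libraries, and an unadjusted p under 0.05 was reached by 2 of the 10 monocyte genes, 2 of the 9 growth factor or receptor genes and 4 of the 13 transcription factor genes, against 17.3% of all genes. Of the genes named from all the lists, DESeq2 called Chil3, Timd4, Ccl22 and F13a1 beside Cd86.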

How the data were processed

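Total RNA of 12 tumours was sequenced as 150-base read pairs, per the labels' protocols. The authors deposited a table of counts per gene and a table of FPKM values; the submitters' processing notes name HTSeq 0.11.2, HISAT2 2.1.0, R 3.5.1, DESeq2 1.22.2, fastp 0.20.1 and build GRCm39, with no roles. For the annotation and the use of strand, nothing is given in the sources used here. FPKM values deposited by the authors were used only to order levels between genes. Library names in the column headers match the labels.

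The deposited counts were tested with edgeR 4.0.16 in R 4.3.3: TMM scaling, filterByExpr (15269 of 35434 genes kept), 1 mean per group over all 12 libraries, the quasi-likelihood F test, and Benjamini-Hochberg adjustment over all genes tested, with calls at an adjusted p under 0.05. SEs were derived from the log2 change and its F value, and CPM uses the TMM-scaled library sizes. The 7 comparisons were HC against MC, HI against MI, MI against MC, HI against HC, their interaction and the 2 averages. At the depths given in the report, 3 counts equal 0.0728 to 0.0917 CPM. The scripts were tested on simulated counts.

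The 33 members, the further lists and the tests were chosen with earlier results of these data known. In each comparison the 3 members with the smallest p are given in every library, as are members whose groups do not overlap with a log2 change over 0.5 and the member of highest mean CPM of each role; of each further list, up to 2 genes with the smallest p in the altitude average are named. Alternatives were the DESeq2 1.42.0 Wald test, limma-voom (limma 3.58.1), DESeq2 size factors, other filters on low counts, fits of the compared groups alone, each library left out, and the replicate number as a block. Leaving out both MI1 and HI3, and DESeq2 without MI1, were added after the data were seen. Deviations from the group means of same-numbered libraries correlated at 0.278, 0.153 and 0.209 between HC and MC. The labels record no pairing, and these correlations alone do not show that the tumours were paired. In the other comparisons of 2 groups at least 1 pair was under 0.1, though MI1 and MC1 reached 0.313.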

Additional observations from a re-analysis of the deposited data

How the results depend on the processing

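Of the 33 genes, 0 passed under limma-voom, DESeq2 size factors, either other filter or the replicate block in any of the 7 comparisons. In HC against MC 4 passed in DESeq2 (2.06% of all genes) and 2 in DESeq2 without MI1 (2.23%). With those groups alone 2 passed (0.428%), and with 1 library left out 0 to 1 (0.257% where 1 passed). In HI against MI 2 passed in DESeq2 (2.5%), 0 in DESeq2 without MI1 and 0 to 1 with 1 library left out (3.34% where 1 passed). In the averaged altitude effect 6 passed in DESeq2 (5.67%), 4 in DESeq2 without MI1 (4.65%) and 5 without both MI1 and HI3 (1.34%). With 1 library left out 0 to 5 passed there (2.17% where 5 passed). The cause of the DESeq2 differences was not tested. The replicate block, in which same-numbered libraries are paired, left 0 of the 33 called, while the count over all genes went from 0 to 13 in HC against MC and from 76 to 155 in the averaged altitude effect; it changed no other call on a named gene than that of Chil3. The median log2 change of the 33 was -0.36 (without MC2) to -0.14 (without MC3) in HC against MC, -0.45 (without HI3) to -0.20 (without MI1) in HI against MI, -0.12 to 0.15 in MI against MC and -0.26 to 0.040 in HI against HC with 1 library left out. It was -0.12 in MI against MC and -0.27 in HI against HC without both MI1 and HI3, -0.12 in MI against MC in DESeq2 without MI1, and -0.18 in HI against HC under limma-voom; the cause was not tested. No called value changed sign under any of these settings. For Clec9a, Xcr1, Flt3, Cd209a and Siglech, low counts limit the precision.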
